A study of Mus musculus with 9 samples.

Results

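The genes described here encode the contractile and mesenchymal cytoskeleton: the smooth muscle actins Acta2 and Actg2, the transgelins Tagln and Tagln2, the calponins Cnn1 and Cnn2, the myosin light chain Myl9, the tropomyosins Tpm1 and Tpm2, and the intermediate filament gene Vim. These 10 of the 52636 genes in the count table were chosen by their measured counts in mouse embryonic stem cells, since Acta2 was already known nearly to vanish in these data with added Esrrb. Every comparison of these genes with the Nanog-null line is therefore a description with no test. The comparison between the lines that both carry Esrrb was tested.

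Total RNA was sequenced from 3 lines with 3 libraries each. The Esrrb+Nanog line (titled NanogKO:Esrrb:Nanog, 44JN) and the Esrrb line (NanogKO:Esrrb, 44J) share the genotype label N{delta}:cE:iN. The Nanog-null line (NanogKO, 44C6) carries the label N{delta} and is the reference for both. All 3 lines carry the Nanog knockout, were grown in 10% serum with 1000 U/ml of leukaemia inhibitory factor, received no treatment, and were sorted as PECAM-positive and PDGFRA-negative cells. Since each group is a single line, an effect of the added gene and one of the line cannot be told apart, and nothing says that replicates were separate cultures, so p-values measure only the spread between these libraries.

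Library totals ran from 21808120 to 32496267 counts. Nanog lay between 221 and 332 CPM (counts scaled to the normalised library size) in the Esrrb+Nanog line, between 29.7 and 35.1 CPM in the Esrrb line, and between 14.3 and 16.0 CPM in the Nanog-null line. Esrrb lay between 1055 and 1150 CPM in the Esrrb+Nanog line, between 692 and 948 CPM in the Esrrb line, and between 253 and 303 CPM in the Nanog-null line. The pluripotency factors Pou5f1 and Sox2 were at 569 CPM or more in every library. Of the other pluripotent cell markers, Zfp42 was higher and Pecam1, the gene of the sort marker, lower in the Esrrb line than in the Nanog-null line (log2 changes 0.86 and -0.71), and Sox2 and Sall4 were slightly lower in the Esrrb+Nanog line than in the Esrrb line (-0.28 and -0.21), calls lost in 5 and 8 of the 9 fits that leave out a library. Nanog-null replicate 2 stood apart from its partners in many of the genes below, and where leaving it out ends a call or moves a called fold by over 1.5 times, the value without it is given.

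Smooth muscle cells contract when myosin pulls on filaments of smooth muscle actin, which tropomyosins, calponins and transgelins bind along their length. Serum response factor (SRF) switches on many of these genes through a short DNA element called the CArG box, with myocardin-related factors (MRTFs) that are released when actin polymerises. Vimentin forms the intermediate filaments of mesenchymal cells and does not share that contractile role.

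Promoters of 8 of the 10 genes were found in RefSeq (GRCm38.p6), and the 250 bases before the annotated start were searched on both strands. RefSeq and GENCODE place these starts differently. By the gene bounds given below, the Vim stretch lies wholly within the gene, the Acta2, Tagln2, Tpm1 and Tpm2 stretches mostly, and the Myl9, Cnn1 and Cnn2 stretches in part. Exact CArG boxes stood in 2 of the 8 (Cnn2 and Myl9), and 1.47% of all 32851 promoter sequences held one. CArG boxes with 1 substitution among their central bases stood in Acta2 (at 84 to 75 and at 34 to 25 bases before the start) and in Myl9, against 7.24% of all promoters. The MCAT element CATTCC was found in the stretches of Acta2, Tagln2 and Tpm1 (12.6% of all promoters), and the estrogen-related receptor element TCAAGGTCA in none of the 8 (0.387% of all promoters). These are matches of letters, and the Vim sequence is shown as one without a CArG match. The 4 stretches are Acta2 at chr19:34255374-34255623 (minus strand), Myl9 at chr2:156775214-156775463 (plus strand), Cnn2 at chr10:79988350-79988599 (plus strand) and Vim at chr2:13574061-13574310 (plus strand), with capitals marking CArG boxes, exact or with 1 substitution.
Acta2: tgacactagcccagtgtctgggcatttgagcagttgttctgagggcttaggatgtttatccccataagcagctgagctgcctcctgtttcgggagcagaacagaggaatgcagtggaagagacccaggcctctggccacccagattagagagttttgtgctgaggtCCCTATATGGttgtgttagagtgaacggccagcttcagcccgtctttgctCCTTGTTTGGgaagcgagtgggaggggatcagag
Myl9: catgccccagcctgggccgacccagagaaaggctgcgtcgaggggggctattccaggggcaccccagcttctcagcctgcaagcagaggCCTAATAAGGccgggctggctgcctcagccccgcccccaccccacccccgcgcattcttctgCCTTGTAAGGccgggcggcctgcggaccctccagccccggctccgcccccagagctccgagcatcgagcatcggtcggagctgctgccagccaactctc
Cnn2: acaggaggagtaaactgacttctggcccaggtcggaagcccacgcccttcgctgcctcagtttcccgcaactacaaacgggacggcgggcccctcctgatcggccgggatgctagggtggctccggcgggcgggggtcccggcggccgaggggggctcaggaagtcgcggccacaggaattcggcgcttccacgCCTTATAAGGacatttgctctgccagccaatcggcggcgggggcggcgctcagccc
Vim: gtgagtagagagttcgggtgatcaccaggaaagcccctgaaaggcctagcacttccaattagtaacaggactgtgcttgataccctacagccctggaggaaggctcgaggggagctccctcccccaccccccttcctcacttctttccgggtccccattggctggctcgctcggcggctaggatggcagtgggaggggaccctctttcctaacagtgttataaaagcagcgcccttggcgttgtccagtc

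Acta2 (ENSMUSG00000035783, chromosome 19, 34241090 to 34255590), the actin of vascular smooth muscle, had 1, 0 and 3 counts in the Esrrb+Nanog libraries and 0, 3 and 0 counts in the Esrrb libraries, against 166, 1410 and 480 counts in the Nanog-null libraries. The Nanog-null libraries were thus the ones with more than a trace, and they differed widely from each other, at 7.69, 54.3 and 16.0 CPM. Summed over its libraries, the Nanog-null line had a normalised level 535 times that of the Esrrb+Nanog line (95% exact counting interval 208 to 1963) and 768 times that of the Esrrb line (262 to 3726). Without Nanog-null replicate 2 these ratios were 253 (98.2 to 930) and 363 (124 to 1764). Such intervals cover counting error only.

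Actg2 (ENSMUSG00000059430, chromosome 6, 83512905 to 83536265), the actin of visceral smooth muscle, was at 0, 0 and 1 counts in the Esrrb+Nanog line, 0 in all Esrrb libraries, and 0, 1 and 1 counts in the Nanog-null line. It failed the low-count filter, and no line showed more than a trace. A count of 0 over the Esrrb libraries allows a level of up to 0.0346 CPM. The actin reading frames are alike, with 84.2% identity between Acta2 and Actg2 and 85.4% between Acta2 and the skeletal muscle actin gene Acta1, and the longest run of identical bases shared with the compared Acta2 transcripts was 29 for Acta1 and for Actg2, 56 for Actg1 and 47 for Actb, both far more abundant. Reads that fall in shared runs can be divided between these genes in ways the sources used here do not state.

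Myl9 (ENSMUSG00000067818, chromosome 2, 156775420 to 156781658), the regulatory light chain of smooth muscle myosin, stood at 0.332, 0.683 and 0.455 CPM in Esrrb+Nanog libraries and 0.552, 0.440 and 0.230 CPM in the Esrrb libraries, against 5.05, 6.08 and 3.44 CPM in the Nanog-null libraries. All 6 Esrrb-carrying libraries lay below all Nanog-null libraries. The fitted log2 difference from the Nanog-null line was -3.31 ± 0.33 (SE) for the Esrrb+Nanog line and -3.54 ± 0.33 for the Esrrb line.

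Cnn1 (ENSMUSG00000001349, chromosome 9, 22099216 to 22109630), calponin of smooth muscle, stood at 0.332, 0.402 and 0.385 CPM in Esrrb+Nanog libraries and 1.04, 0.377 and 1.07 CPM in the Esrrb libraries, against 3.38, 7.43 and 3.44 CPM in the Nanog-null libraries. The Esrrb-carrying lines overlapped each other through Esrrb replicate 2, and neither overlapped the Nanog-null line. Its paralog Cnn2 (ENSMUSG00000004665, chromosome 10, 79988584 to 79996062), a calponin of non-muscle cells, was far more abundant, at 57.5, 45.8 and 46.1 CPM in the Esrrb+Nanog line and 61.7, 65.2 and 55.2 CPM in the Esrrb line, against 123, 166 and 109 CPM in the Nanog-null line. The fitted log2 differences from the Nanog-null line were -3.66 ± 0.44 and -2.54 ± 0.39 (SE) for Cnn1 in the Esrrb+Nanog and Esrrb lines. For Cnn2 they were smaller, at -1.41 ± 0.14 and -1.12 ± 0.14.

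Tagln (ENSMUSG00000032085, chromosome 9, 45929619 to 45936058), an actin-binding protein of smooth muscle also called SM22, was low throughout, with 7, 7 and 8 counts in the Esrrb+Nanog line and 5, 4 and 4 in the Esrrb line, against 11, 33 and 18 in the Nanog-null line. Its exons overlap an antisense gene, Gm48529, over 1241 bases and Pcsk7, on the opposite strand, over 108 bases, and the sources used here do not say whether the counting used strand. Tagln2 (ENSMUSG00000026547, chromosome 1, 172500047 to 172507380), the widely expressed transgelin, lay on the other side, at 109, 131 and 120 CPM in the Esrrb+Nanog line and 101, 109 and 88.5 CPM in the Esrrb line, against 69.1, 101 and 73.7 CPM in the Nanog-null line. The Esrrb and Nanog-null values of Tagln2 overlapped through Nanog-null replicate 2.

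**Figure D1:**
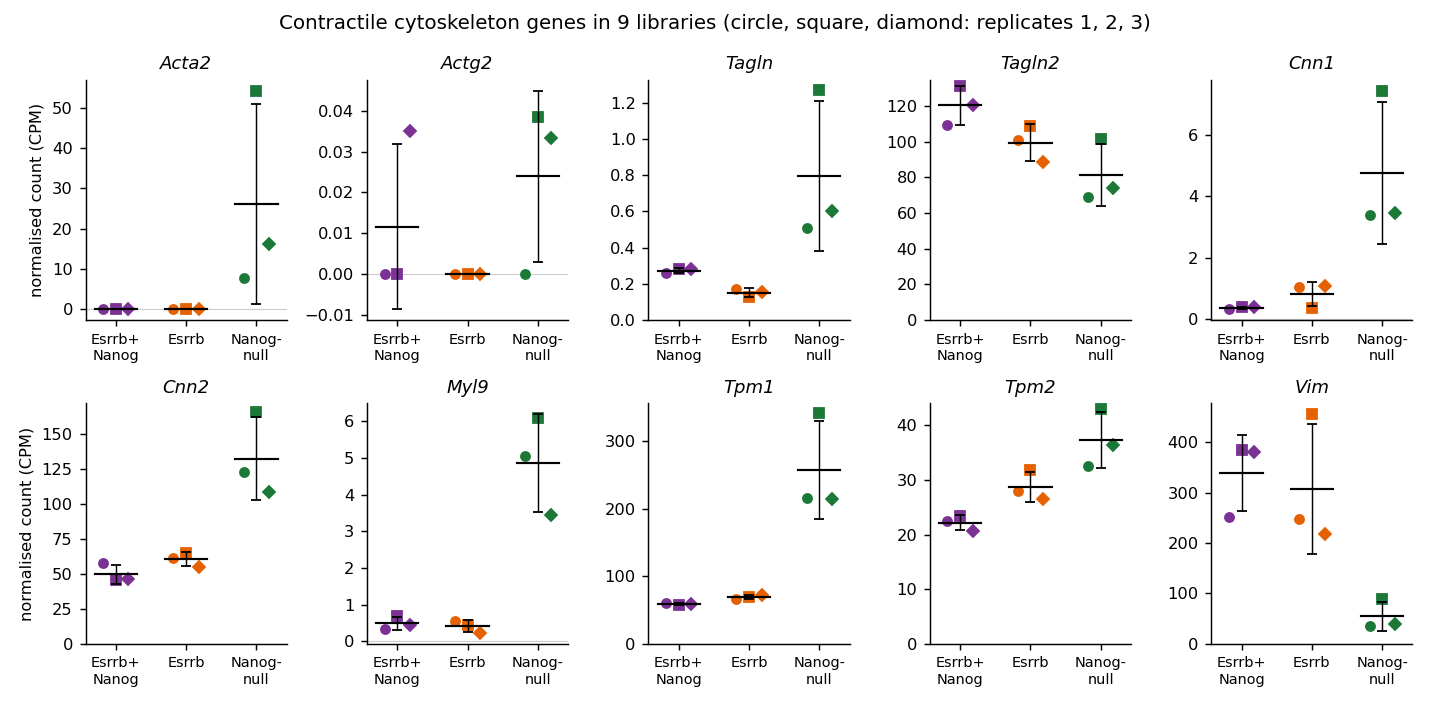
Normalised count (CPM) of each of the 10 genes in the 9 libraries, with Esrrb+Nanog, Esrrb and Nanog-null libraries from left to right; each panel has its own linear axis, lines and bars are the mean and SD of 3 libraries. Nanog-null replicate 2 (square) is the highest Nanog-null library in every panel, and Vim and Tagln2 are the genes whose means are higher in both Esrrb-carrying lines.

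Tpm1 (ENSMUSG00000032366, chromosome 9, 67022590 to 67049406), a tropomyosin of muscle and stress fibres, was at 60.2, 58.0 and 58.6 CPM in Esrrb+Nanog libraries and 66.3, 69.3 and 72.9 CPM in the Esrrb libraries, against 215, 342 and 215 CPM in the Nanog-null libraries. The 3 lines did not overlap. Tpm2 (ENSMUSG00000028464, chromosome 4, 43514711 to 43523765), a second muscle tropomyosin, was at 22.5, 23.3 and 20.7 CPM in the Esrrb+Nanog line and 28.0, 31.8 and 26.6 CPM in the Esrrb line, against 32.6, 42.9 and 36.5 CPM in the Nanog-null line. Its lines were also apart, by far less.

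Counted per kilobase of exon together with the non-muscle tropomyosins Tpm3 and Tpm4, Tpm1 made up 10.8%, 9.86% and 10.2% of tropomyosin in the Esrrb+Nanog libraries and 11.3%, 10.7% and 12.4% in the Esrrb libraries, against 29.5%, 35.7% and 29.2% in the Nanog-null libraries. The share of Tpm3 (Tpm3 and Tpm4 are named here after their values were seen) was 51.4%, 57.6% and 60.4% in the Esrrb+Nanog line and 50.9%, 53.6% and 51.7% in the Esrrb line, against 32.4%, 25.2% and 32.5% in the Nanog-null line. Shares of one pool move against each other by construction. Exon length is that of all annotated exons of a gene merged, used or not, so shares and rankings per kilobase depend on the annotation. On the same per-length scale Acta2 was 0.301%, 2.00% and 0.659% of the 6 actin genes in the Nanog-null libraries, and at most 0.00371% in the Esrrb-carrying libraries.

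**Figure D2:**
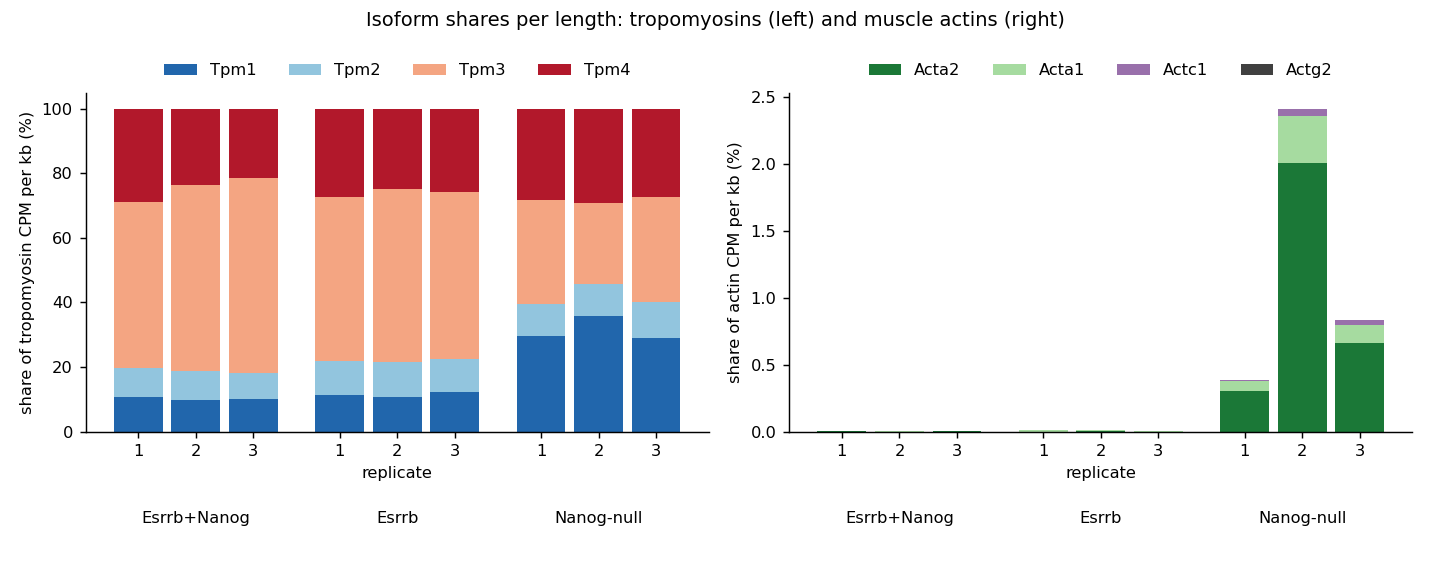
Share of each gene in the summed CPM per kilobase of exon of the 4 tropomyosins (left) and of the 6 actins (right, muscle actins drawn and the remainder Actb and Actg1), in percent, for each library. Tpm1 holds 29.2% to 35.7% of tropomyosin in the Nanog-null line and at most 12.4% in the Esrrb-carrying lines, and muscle actins are visible in the Nanog-null line, where replicate 2 is highest.

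Vim (ENSMUSG00000026728, chromosome 2, 13573927 to 13582826), vimentin, ran opposite to the contractile genes, at 253, 384 and 380 CPM in Esrrb+Nanog libraries and 247, 456 and 219 CPM in the Esrrb libraries, against 35.4, 88.1 and 39.6 CPM in the Nanog-null libraries. All Esrrb-carrying libraries lay above all Nanog-null libraries, and replicate 2 was the highest in each line. The fitted log2 difference from the Nanog-null line was 2.64 ± 0.36 (SE) for the Esrrb+Nanog line and 2.497 ± 0.36 for the Esrrb line. Per kilobase of exon, Vim had the highest mean of the 10 genes in both Esrrb-carrying lines (71.5 CPM per kb in the Esrrb+Nanog line and 64.8 in the Esrrb line), against 11.5 CPM per kb in the Nanog-null line, where Cnn2 (53.8), Tpm1 (39.7), Tagln2 (39.1), Tpm2 (12.8) and Acta2 (11.8) had higher means.

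**Figure D3:**
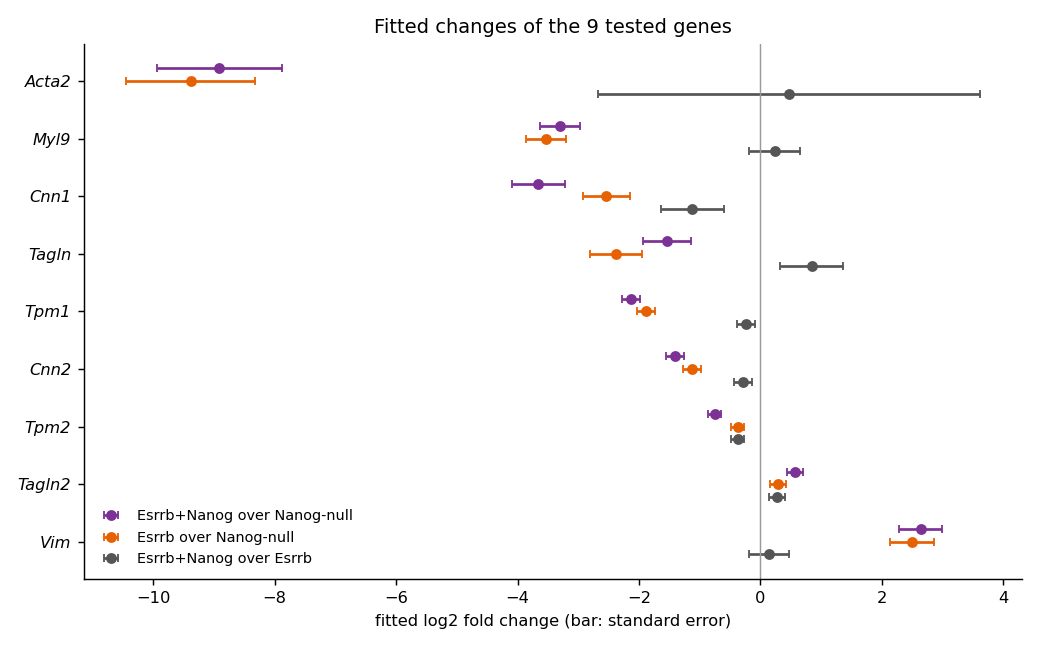
Fitted log2 fold changes with standard errors (bars) of the 9 genes that passed the low-count filter, for Esrrb+Nanog over Nanog-null, Esrrb over Nanog-null and Esrrb+Nanog over Esrrb. Points for the 2 comparisons with the Nanog-null line run from Acta2 at the low end to Vim at 2.64 and 2.497, while Esrrb+Nanog over Esrrb stays within the standard error bars of 0 for Acta2, Myl9 and Vim.

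Of the 9 genes that passed the low-count filter, 7 were lower and 2 higher in the Esrrb+Nanog line with no overlap with the Nanog-null line, and 7 were lower and 1 higher in the Esrrb line. Over all 16198 genes tested, 30.7% were lower and 31.2% higher without overlap in the Esrrb+Nanog line, and 29% were lower and 29.4% higher in the Esrrb line. The median fitted log2 change of the 9 genes was -1.53 in the Esrrb+Nanog line and -1.89 in the Esrrb line, beside 0.00194 and 0.00630 over all genes tested. The list was written with these contrasts in view, Acta2, Cnn1, Myl9 and Tagln are low wherever Esrrb was added, and both comparisons use the same Nanog-null libraries, so these counts describe the list and support nothing further.

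Between the Esrrb+Nanog and Esrrb lines, Tpm2 was the 1 member of the 9 that passed edgeR's quasi-likelihood test, and it fell in the Esrrb+Nanog line to 22.2 ± 1.4 CPM, against 28.8 ± 2.7 CPM in the Esrrb line (SD, n = 3 each), a log2 change of -0.38 ± 0.11 (SE, adjusted p = 0.0411). Over all genes 13.2% were called in this comparison, 7.75% in the lower direction, so 1 of 9 is near the background. Its log2 change ran from -0.43 to -0.30 over the alternatives, but the call was not kept in all: the adjusted p of edgeR was 0.0915, 0.0796 or 0.128 without Esrrb+Nanog replicate 1, 2 or 3, 0.0941 or 0.103 without Esrrb replicate 1 or 2, and 0.0780 without Nanog-null replicate 3. It was 0.0941 with library totals alone and 0.0530 with a 5 CPM floor. The call held in the fits without Esrrb replicate 3 (0.0462) and without Nanog-null replicate 1 (0.0364) or 2 (0.0290). Acta2 and Tagln are among the 9 only through their Nanog-null counts, so a call for them was hardly possible here. In a fit of only these 2 lines both failed the low-count filter, which left 7 genes tested and 2 called, both lower.

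The other 8 tested genes did not pass. Cnn1 averaged 0.373 ± 0.036 CPM in the Esrrb+Nanog line and 0.829 ± 0.39 CPM in the Esrrb line (log2 change -1.12 ± 0.52, edgeR adjusted p = 0.183). Tagln averaged 0.273 ± 0.013 CPM in the Esrrb+Nanog line and 0.151 ± 0.024 CPM in the Esrrb line (0.85 ± 0.52, edgeR adjusted p = 0.321), with no overlap but counts of 8 or fewer per library. Tpm1 and Tagln2 also had no overlap (with Tpm2, 2 genes were higher and 2 lower without overlap, where 14.9% of all genes were higher and 16.7% lower), at -0.24 ± 0.15 (edgeR adjusted p = 0.331) and 0.27 ± 0.13 (0.198). Cnn2 stood at -0.29 ± 0.14 (0.224), Myl9 at 0.23 ± 0.42 (0.772), Vim at 0.14 ± 0.33 (0.827) and Acta2, with 4 counts against 3, at 0.47 ± 3.1 (0.943). At this depth a difference between these lines in Acta2 within this trace range was not detectable.

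Replicate 2 exceeded the mean of replicates 1 and 3 in all 9 tested genes, by 4.57-fold for Acta2, 2.35-fold for Vim, 2.29-fold for Tagln, 2.18-fold for Cnn1, 1.59-fold for Tpm1, 1.43-fold for Cnn2 and for Myl9, 1.42-fold for Tagln2 and 1.24-fold for Tpm2. The median log2 ratio of replicate 2 to its partners was 0.667 over these genes and 0.000534 over all genes tested. Without replicate 2 the fitted log2 differences of the Esrrb line were -8.27 for Acta2, -3.35 for Myl9, -2.07 for Cnn1, -1.89 for Tagln, -1.65 for Tpm1, -0.94 for Cnn2, -0.28 for Tpm2, 0.46 for Tagln2 and 3.02 for Vim. Each had the same sign as with all libraries. Vim, higher in the Esrrb-carrying lines, was like the others highest in replicate 2 among the Nanog-null libraries.

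**Figure D4:**
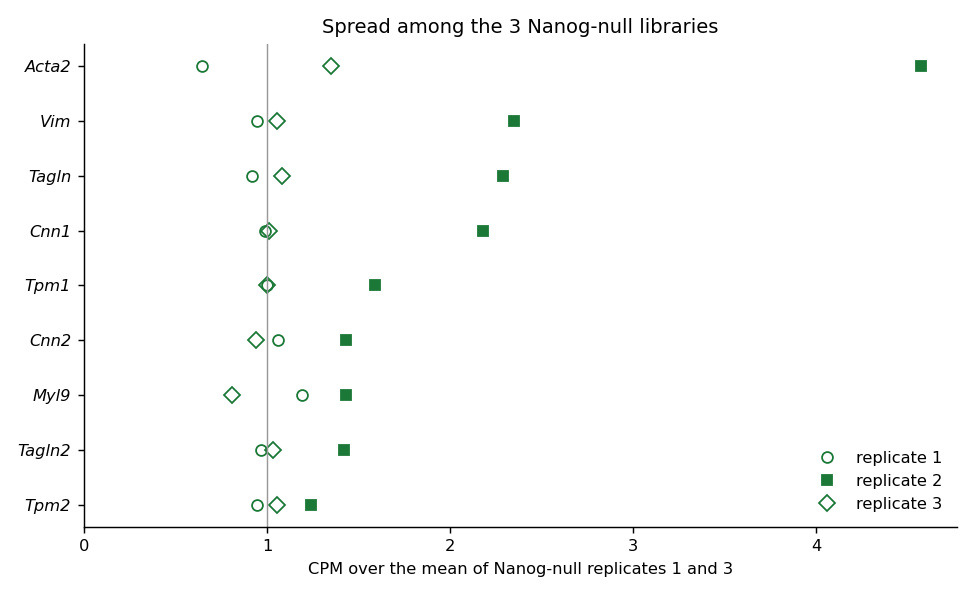
CPM of each Nanog-null library divided by the mean of Nanog-null replicates 1 and 3, for the 9 tested genes (linear axis from 0). Replicate 2 (filled square) is the highest for every gene, from 1.24-fold for Tpm2 to 4.57-fold for Acta2.

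Some markers of other cell types moved with that library. Over 2-fold higher in it than the mean of its partners on the log2 scale were 8 of 8 tested primitive endoderm markers and 2 of 4 fibroblast markers. So were 2 of 5 cardiac and skeletal muscle markers and 0 of 5 mesoderm markers, beside 239 of all 16198 genes tested. Col1a2, a fibrillar collagen gene of fibroblasts, was at 0.111, 0.241 and 0.245 CPM in the Esrrb+Nanog line and 0.311, 0.220 and 0.269 CPM in the Esrrb line, against 2.41, 16.8 and 4.41 CPM in the Nanog-null line. Its order among the Nanog-null libraries, but not within the other lines, was that of Acta2. The summed level of the 8 fibroblast markers ranged from 11.4 to 18.5 CPM in the Esrrb+Nanog line and 10.4 to 18.8 CPM in the Esrrb line, against 8.84 to 32.6 CPM in the Nanog-null line. Of the 4 tested, Col1a1 and Col1a2 fell in the Esrrb line (log2 changes -2.17 and -4.87, and -1.07 and -3.70 without Nanog-null replicate 2) and Thy1, a surface marker of fibroblasts, rose (1.98), beside 24.2% of all genes in each direction. Col1a2 passed the low-count filter only through its Nanog-null counts, so its fall is a description and no test. Pdgfrb was not called (0.37, edgeR adjusted p = 0.143). Col3a1, Postn, Dcn and Lum failed the low-count filter. They had 0, 0, 0 and 2 counts over the Esrrb+Nanog libraries and 2, 0, 5 and 2 over the Esrrb libraries, against 63, 7, 14 and 3 over the Nanog-null libraries. These last 4 and Pdgfrb are named after their values were seen. The summed primitive endoderm markers (8 genes) ranged from 170 to 224 CPM in the Esrrb+Nanog line and 247 to 346 CPM in the Esrrb line, against 67.6 to 226 CPM in the Nanog-null line. All 8 were over 2-fold higher in Nanog-null replicate 2 than the mean of its partners on the log2 scale, though not each over replicate 3 alone (Gata6 at 6.08 against 3.51 CPM). In bulk RNA, fewer cells of a type and less RNA per cell cannot be told apart. Of the 8 primitive endoderm markers, 4 rose and 1 fell in the Esrrb line (5 and 1 without Nanog-null replicate 2), beside 24.2% of all genes in each direction. Gata6, a primitive endoderm factor, rose (2.76 ± 0.50, edgeR adjusted p = 0.000761) and the endocytic adaptor gene Dab2 fell (-1.33 ± 0.31, 0.00394). The cells were sorted as PDGFRA-negative, and Pdgfra itself averaged 2.90 ± 1.1 CPM in the Esrrb+Nanog line and 10.4 ± 4.2 CPM in the Esrrb line, against 2.29 ± 2.0 CPM in the Nanog-null line. It rose in the Esrrb line (2.16 ± 0.52, edgeR adjusted p = 0.00474, and 2.99 without Nanog-null replicate 2). Gata6, Pdgfra and Dab2 were also called lower in the Esrrb+Nanog line than in the Esrrb line, and each of those calls was lost in 3 or more of the 9 fits that leave out a library. The part of such cells in the values of Acta2 and its partners was not tested.

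The 8 cardiac and skeletal muscle markers summed to 35.0 to 57.0 CPM in the Esrrb+Nanog line and 74.4 to 79.0 CPM in the Esrrb line, against 17.8 to 51.4 CPM in the Nanog-null line, with Ttn, the giant sarcomere protein gene, the highest of the 8 in every library. Ttn rose in the Esrrb line to 72.3 ± 2.8 CPM, against 23.7 ± 19 CPM in the Nanog-null line (log2 change 1.63 ± 0.40, edgeR adjusted p = 0.00542), where replicate 1 was highest at 45.9 CPM (2.505 without it). Myh6, a cardiac myosin heavy chain gene, was called lower (-0.68 ± 0.26, edgeR adjusted p = 0.0493), but not without Nanog-null replicate 2 (0.0996), nor in 5 other fits that leave out a library (0.0590 to 0.176). Myh7, a second cardiac heavy chain gene, did not pass (-0.87 ± 0.47, edgeR adjusted p = 0.151). Of the 5 tested mesoderm markers 1 was called, beside 24.2% of all genes in each direction. It was Kdr, a vascular endothelial growth factor receptor gene, which rose in the Esrrb line to 13.2 ± 5.1 CPM, against 1.44 ± 0.16 CPM in the Nanog-null line (3.20 ± 0.34, edgeR adjusted p = 1.58e-05). T, a primitive streak factor, was at 0.89 ± 0.41 (edgeR adjusted p = 0.0921) and the heart factors Hand1 and Tbx20 at -0.47 ± 0.38 (0.327) and 0.29 ± 0.30 (0.459), while Mixl1, of the primitive streak, was at -0.11 ± 0.31 (0.789).

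The remaining muscle actins, which are not among the 10 genes, were also lower in the Esrrb-carrying lines. Acta1, of skeletal muscle, was at 0.0738, 0.0804 and 0.0350 CPM in the Esrrb+Nanog line and 0.242, 0.126 and 0.115 CPM in the Esrrb line, against 1.44, 6.62 and 2.31 CPM in the Nanog-null line. It fell in the Esrrb line with a log2 change of -4.39 ± 0.62 (SE), or -3.54 without Nanog-null replicate 2. Acta1 passed the low-count filter only through its Nanog-null counts, so this fall is a description and no test. Actc1, of heart muscle, had 1 count over the Esrrb+Nanog libraries and 0 over the Esrrb libraries, against 52 in the Nanog-null line, which puts the Esrrb line at least 19.4-fold lower, computed against a floor of 3 counts over the group. The cytoskeletal actins differed far less. Actb rose in the Esrrb line to 3138 ± 162 CPM, against 2619 ± 109 CPM in the Nanog-null line (0.26 ± 0.07, edgeR adjusted p = 0.0128, and 0.0821 without Nanog-null replicate 3), and Actg1 was at 455 ± 29 CPM in the Esrrb line and 468 ± 33 CPM in the Nanog-null line (-0.04 ± 0.07, edgeR adjusted p = 0.686).

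Among 25 tested contractile and SRF-MRTF target genes outside the list, 14 fell and 1 rose in the Esrrb line (12 fell and 1 rose without Nanog-null replicate 2), where 24.2% of all genes were called lower and 24.2% higher. These genes too were listed with results of these data known, so the count describes them and is no independent evidence. Of the 14, Fhl2 passed the low-count filter only through its Nanog-null counts and Lmod1 mainly so, and their falls are no test. Both are named after their values were seen. Cald1, the actin-binding caldesmon gene, fell to 27.9 ± 4.5 CPM, against 106 ± 38 CPM in the Nanog-null line (log2 change -1.93 ± 0.21, edgeR adjusted p = 1.76e-05). Csrp1, a LIM protein gene of smooth muscle, fell to 22.8 ± 1.6 CPM, against 59.2 ± 20 CPM, and Pdlim7, a PDZ and LIM protein gene of stress fibres, to 42.5 ± 1.8 CPM, against 84.6 ± 15.5 CPM. Of the SRF-MRTF targets, Fhl1, a LIM protein gene of muscle, fell to 39.4 ± 3.3 CPM, against 102 ± 9.0 CPM, and the matricellular gene Ccn1 to 14.4 ± 3.3 CPM, against 42.9 ± 19 CPM. Itga8, an integrin chain gene named here after its values were seen, was the 1 that rose. Myh11, the smooth muscle myosin heavy chain gene and also named after its values were seen, did not pass the test (-0.65, edgeR adjusted p = 0.123) and stayed under 1 CPM.

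Between the Esrrb+Nanog and Esrrb lines 1 of these 25 genes rose and 3 fell, where 5.43% of all genes were called higher and 7.75% lower. Ccn2, a matricellular gene also known as connective tissue growth factor, fell to 24.1 ± 2.7 CPM in the Esrrb+Nanog line, against 53.6 ± 1.7 CPM in the Esrrb line (log2 change -1.16 ± 0.12, edgeR adjusted p = 0.000137). Filip1l, an SRF-MRTF target of low level, fell to 0.781 ± 0.19 CPM, against 2.18 ± 0.32 CPM (-1.47 ± 0.26, edgeR adjusted p = 0.00388). Fhl1 fell again (-0.45 ± 0.13, edgeR adjusted p = 0.0450), and Mylk, the myosin light chain kinase gene, rose to 0.782 ± 0.25 CPM, against 0.393 ± 0.025 CPM (0.99 ± 0.30, edgeR adjusted p = 0.0486). The calls of Fhl1 and Mylk were each lost in 8 of the 9 fits that leave out a library (edgeR adjusted p = 0.0502 to 0.163 for Fhl1 and 0.0597 to 0.181 for Mylk).

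**Figure D5:**
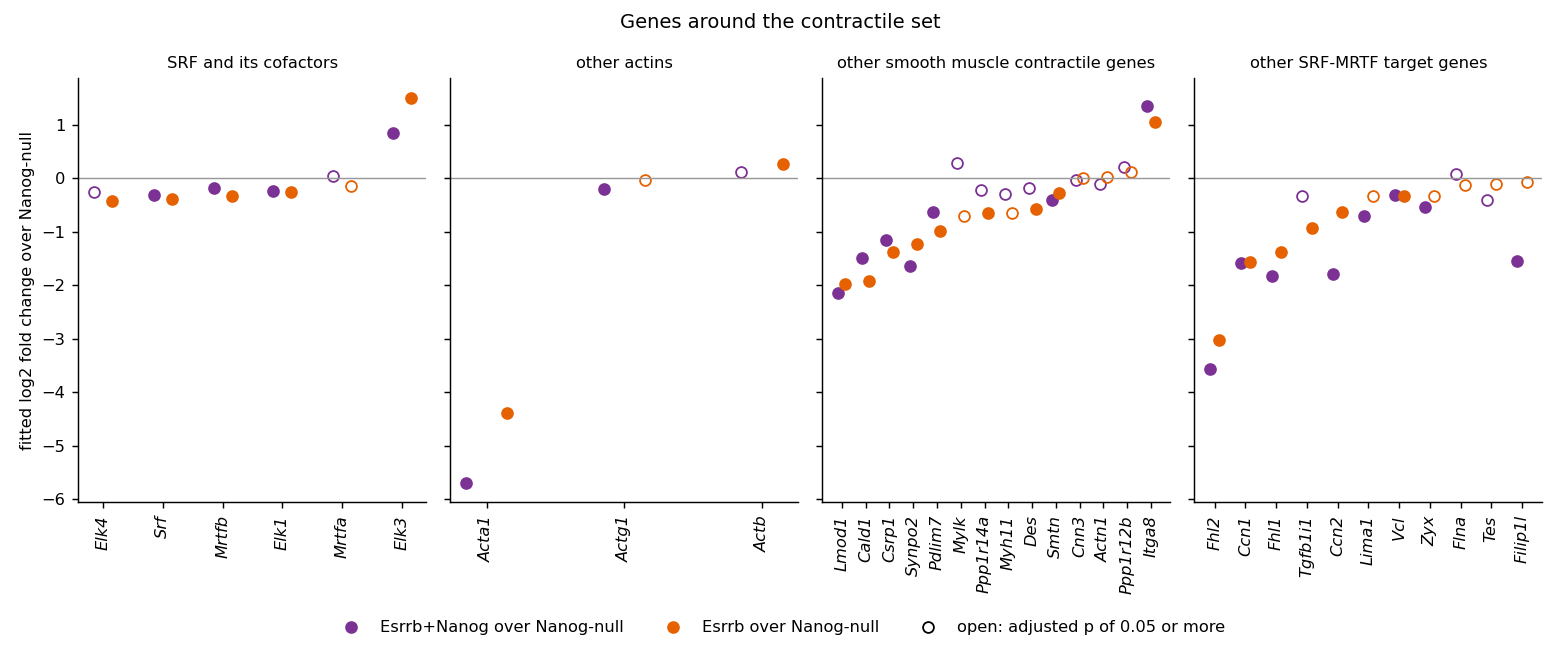
Fitted log2 fold change over the Nanog-null line, Esrrb+Nanog and Esrrb side by side, for tested genes outside the list, grouped as SRF and its cofactors, other actins, other smooth muscle contractile genes and other SRF-MRTF target genes; filled points passed the test. Acta1, which passed the low-count filter only through its Nanog-null counts, is the lowest point. Most contractile genes lie below 0, and Elk3 is the one of the SRF cofactors that lies well above 0.

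Of 6 tested genes of SRF and its cofactors, 4 fell and 1 rose in the Esrrb line, beside 24.2% of all genes in each direction. Srf fell in the Esrrb line to 66.6 ± 5.8 CPM, against 87.2 ± 8.6 CPM in the Nanog-null line (log2 change -0.39 ± 0.08, edgeR adjusted p = 0.00270). Mrtfb fell by 0.34 ± 0.07 on the log2 scale (edgeR adjusted p = 0.00169), while Mrtfa, the other widely expressed MRTF gene, was not called (-0.15 ± 0.09, edgeR adjusted p = 0.196). Myocd, the cofactor of heart and smooth muscle, failed the low-count filter, with a mean of 0.0997 CPM in the Esrrb+Nanog line, 0 in the Esrrb line and 0.0651 CPM in the Nanog-null line. Of the ternary complex factors, which bind SRF in place of MRTFs, Elk1 and Elk4 fell (-0.26 ± 0.07 and -0.43 ± 0.10). Elk3 rose to 19.4 ± 4.5 CPM, against 6.84 ± 1.4 CPM in the Nanog-null line (1.503 ± 0.19, edgeR adjusted p = 5.99e-05), and fell in the Esrrb+Nanog line relative to the Esrrb line (-0.66 ± 0.18, edgeR adjusted p = 0.0347). That last call was lost in 5 of the 9 fits that leave out a library (0.0541 to 0.111).

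Non-muscle relatives of the listed genes split. Of 9 tested in the Esrrb line, 5 fell and 1 rose, beside the same 24.2% of all genes in each direction. Myh9, the non-muscle myosin heavy chain gene that works with MYL9, fell to 69.6 ± 6.2 CPM, against 457 ± 66 CPM in the Nanog-null line (log2 change -2.72 ± 0.12, edgeR adjusted p = 2.25e-08). Myh10, a second non-muscle heavy chain gene, fell to 122 ± 3.2 CPM, against 242 ± 23 CPM, and Tagln3, the neuronal transgelin gene, to 3.41 ± 0.31 CPM, against 10.2 ± 0.75 CPM. Between both Esrrb-carrying lines, edgeR called 0 of the 9 (13.2% of all genes were called), and 3 of the 9 had an unadjusted p under 0.05 (DESeq2 called 0). Myl6, an essential light chain gene, was at 0.19 ± 0.08 there (edgeR adjusted p = 0.125).

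Over the 9 libraries, the 5 named genes whose pattern was most like that of Acta2 were Uba1y, Trim67, Gbp2, Uty and Zfy1, by the root mean square difference of log2 CPM after centring each gene (0.98, 1.10, 1.12, 1.19 and 1.30, lower being more alike). Uba1y, Uty and Zfy1 lie on chromosome Y. Uty and Zfy1 had 0 counts in all 6 Esrrb-carrying libraries, and Uba1y had 1 count over the Esrrb libraries and 0 over the Esrrb+Nanog libraries. In the Nanog-null libraries Uty was at 48.4, 37.6 and 43.0 CPM and Uba1y at 6.30, 5.70 and 6.52 CPM, without the wide spread of Acta2. The cause of this near absence of Y transcripts from both Esrrb-carrying lines was not tested. Gbp2, an interferon-induced GTPase gene, was at 0 in the Esrrb+Nanog line and at 0.104, 0.189 and 0.115 CPM in the Esrrb line, against 6.20, 15.3 and 5.25 CPM in the Nanog-null line. Of the listed genes, Myl9 ranked 90 and Cnn1 165 among 13824 genes compared, and Vim ranked 13707.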

How the data were processed

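RNA was taken from sorted PECAM-positive, PDGFRA-negative cells, ribosomal RNA was depleted and NEBNext libraries were made, per the labels' protocols. The deposited values are raw read counts per Ensembl gene, 1 column per library, per the file headers. The submitters' processing notes name bcl2fastq 2.19.1, STAR 2.5.3a and mm10; for the annotation, strandedness and counter, the sources used here give nothing. Of 15 columns, 9 carry the name of a sample and entered the analysis; the other 6 did not.

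Symbols, positions and exon lengths came from GENCODE M21 (mm10). Counts were fitted with edgeR 4.0.16 in R 4.3.3 (default low-count filter, TMM factors, quasi-likelihood test, line as the only term, 9 libraries), with Benjamini-Hochberg adjustment over 16198 genes and a threshold of 0.05. CPM carries no pseudocount. Standard errors are the absolute log2 change over the square root of the F statistic. The procedure was tested on simulated data. The 10 genes and all lists were chosen with earlier results of these data known. Beside the members, the text names, of each list, the 3 genes with the smallest p for the Esrrb line over the Nanog-null line and the 2 with the smallest p for the Esrrb+Nanog line over the Esrrb line, every gene of the lists of SRF cofactors and actins, and the 5 genes most like Acta2; a gene named outside this rule is marked as such, and 1 gene under it is not reported here. Promoters are RefSeq sequences (GRCm38.p6). Alternatives were median-of-ratios factors, library totals, DESeq2 1.42.0, other filters, fits restricted to the compared lines, a block for replicate number, and each library left out.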

Additional observations from a re-analysis of the deposited data

How the results depend on the processing

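Between the Esrrb+Nanog and Esrrb lines the count of listed genes called was 1 of 9 tested in the main fit. It was 0 of 9 with library totals alone, 0 of 6 with a 5 CPM floor, 2 of 7 in a fit of only the 2 groups compared, 5 of 10 with no low-count filter, and 0 to 2 of 9 with each library left out. The count of other contractile and SRF-MRTF genes called there was 7 of 27 with no low-count filter, 1 of 18 with the 5 CPM minimum, and 2 to 5 with each library left out, beside 4 of 25 in the main fit. For the Esrrb over the Nanog-null line it was 15 of 25, 11 to 18 over all alternatives (18 to 27 tested) and 13 to 18 with each library left out. The share of all genes called under each alternative was not computed, so these counts cannot be set against a background. With each library left out, the log2 change between the Esrrb+Nanog and Esrrb lines ran from -0.714 to 3.53 for Acta2, from -0.0637 to 0.496 for Myl9 and from -0.0521 to 0.542 for Vim. The sign turned for Acta2 without Esrrb+Nanog replicate 3 (-0.71) or Esrrb replicate 1 (-0.06), for Myl9 without Esrrb+Nanog replicate 2 (-0.06) or Esrrb replicate 3 (-0.03), and for Vim without Esrrb replicate 3 (-0.05); none of these was called, and the cause was not tested. Against the Nanog-null line, all 9 tested genes kept their sign in both comparisons under every alternative that gave a value. Correlations of deviations between Esrrb+Nanog and Esrrb libraries were 0.158, 0.278 and -0.0248 for same-numbered replicates, and from -0.329 to 0.224 for the others. Nanog-null replicate 2 stood at 0.0712 and 0.107 with replicate 2 of the Esrrb+Nanog and Esrrb lines. Whether same-numbered libraries share an effect was not tested, and the main fit has no term for it. The fit with the replicate block gave 1, 15 and 4 calls. Leaving out each library for genes outside the 10 was added after seeing the data, and its effects stand beside those genes. Depth limits Acta2, Actg2 and Tagln in the Esrrb-carrying lines, which rest on at most 8 counts per library.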

Other observations

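Other cytoskeletal and adhesion genes moved between the lines. Lmna, the lamin gene of stiff nuclei, rose to 47.4 ± 2.5 CPM in the Esrrb line, against 23.8 ± 3.5 CPM in the Nanog-null line (SD, n = 3 each; log2 change 0.99 ± 0.10, edgeR adjusted p = 1.58e-05). The simple epithelial keratin genes Krt18 and Krt19 fell, Krt18 to 7.28 ± 0.92 CPM, against 57.0 ± 40.4 CPM, and Krt19 to 1.12 ± 0.11 CPM, against 11.3 ± 7.6 CPM. Nanog-null replicate 2 was the highest library for both, and the log2 changes were -2.97 and -3.34 with it and -2.26 and -2.66 without it. Krt8, the keratin partner of Krt18, fell by 2.56 on the log2 scale, and by 1.77 without that library. Nes, the nestin gene, was called lower (-1.07, edgeR adjusted p = 0.0156), a call lost when Nanog-null replicate 2 (0.0729) or either of Esrrb replicates 1 and 3 (0.0587 and 0.0522) was left out. Of 9 tested genes of the switch between epithelial and mesenchymal states, 2 rose and 4 fell in the Esrrb line (2 and 3 without Nanog-null replicate 2), beside 24.2% of all genes in each direction. Cdh1, E-cadherin, fell to 212 ± 19 CPM, against 417 ± 16 CPM (-0.97 ± 0.07, edgeR adjusted p = 1.15e-06), and Epcam to 83.2 ± 21 CPM, against 230 ± 11 CPM. Zeb1, a repressor of Cdh1, rose to 38.9 ± 1.6 CPM, against 17.7 ± 0.67 CPM (1.14 ± 0.07, edgeR adjusted p = 3.28e-07), and Zeb2, also a repressor of Cdh1 and named after its values were seen, fell to 2.13 ± 0.44 CPM, against 4.46 ± 1.6 CPM (-1.07 ± 0.24, edgeR adjusted p = 0.00336). Fn1, the fibronectin gene, was called lower in the Esrrb+Nanog line than in the Esrrb line (-0.35 ± 0.08, edgeR adjusted p = 0.0196), a call lost without Esrrb+Nanog replicate 2 (0.0869) or 3 (0.0622) or Esrrb replicate 1 (0.0915).

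Of 6 tested TGF-beta pathway genes, 3 rose and 1 fell in the Esrrb line, beside the same 24.2% in each direction. Tgfb1, a ligand gene, rose to 12.9 ± 2.8 CPM, against 6.42 ± 1.1 CPM in the Nanog-null line (1.01 ± 0.18, edgeR adjusted p = 0.000816), and Tgfb2, a second ligand gene, fell to 1.54 ± 0.14 CPM, against 4.17 ± 2.7 CPM (-1.44 ± 0.37, edgeR adjusted p = 0.00697). Tgfb2 was highest in Nanog-null replicate 2, at 7.31 CPM against 2.27 and 2.94 CPM in its partners, and its log2 change was -0.79 without that library. The receptor genes Tgfbr2 and Tgfbr3 were called higher (0.86 and 0.92, edgeR adjusted p = 0.0183 and 0.0159), calls lost without Esrrb replicate 2 (0.0653 and 0.0553) or Nanog-null replicate 1 (0.0742 and 0.0649) or 3 (0.0843 and 0.0741).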
